A study of Rattus norvegicus with 12 samples.

Results

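The endothelin system of rat H9c2 cells was described through 5 genes of the 30562 in the deposited table: the ligand gene Edn1, the receptor genes Ednra and Ednrb, and the converting enzyme genes Ece1 and Ece2. They were found by gene symbol, and all 5 were present, of which 4 averaged 1 TPM or more over all libraries (TPM scales the transcripts of a library to a fixed total, per length). The set was chosen by the measured values of Edn1, which is higher with MMA and with FA in these same libraries, so the Edn1 values below are a description and carry no test in any comparison. The other genes were taken because they belong to the same pathway.

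H9c2 is an established line derived from embryonic rat heart. PolyA RNA was sequenced from 12 libraries, 3 in each of 4 groups: control, cells given FA (folic acid), cells given MMA, and cells given both agents (MMA+FA, written MMA_FA in the labels). No genotype change was listed for any group, and the labels give neither the meaning of MMA nor doses, exposure times or the vehicle of the controls. The labels number the libraries of a group without saying that they came from separate cultures, so p-values measure only the spread between these libraries, which may be technical.

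Endothelin-1 is a small vasoconstrictor peptide best known as a product of the vessel wall. Its precursor is cut first by furin-type proteases to big endothelin-1 and then by endothelin-converting enzymes to the active peptide. The peptide acts on 2 receptors coupled to G proteins, the A type encoded by Ednra and the B type encoded by Ednrb. In heart muscle cells the A type is the main receptor, and its Gq signal through phospholipase C, protein kinase C and calcium is a classic stimulus for growth of the cell. Edn1 is controlled largely at transcription, with AP-1, GATA, SMAD and hypoxia-inducible factors among its known regulators.

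A stretch of the Edn1 promoter is shown because Edn1 is the gene whose level differed most among the members. The stretch holds letters of a GATA core, a hypoxia core and an AP-1 variant, and no SMAD motif was searched. The sequence comes from RefSeq on build GRCr8, chr17:22666788-22666937, minus strand, and covers the bases from 250 to 101 before the annotated start of Edn1. The files were made on another build, mRatBN7.2, and give no coordinates. Capitals mark 4 matches, in order the GATA core (reverse strand), the hypoxia core (reverse strand), an AP-1 variant and a TATA box.
Edn1: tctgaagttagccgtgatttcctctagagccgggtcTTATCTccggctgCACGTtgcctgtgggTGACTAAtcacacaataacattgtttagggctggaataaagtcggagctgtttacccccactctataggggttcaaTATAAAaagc

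The motifs were searched on both strands of the 300 bases from 250 before to 50 after each start, and all 5 members had a window in the table. The GATA core AGATAA lay 214 to 209 bases before the Edn1 start, and 11.6% of 33469 promoters held it. The hypoxia core ACGTG lay at 201 to 197, and 19.3% of promoters held it. The AP-1 variant TGACTAA lay at 186 to 180 and was in 2.34% of promoters, while the consensus TGANTCA, in 7.33% of promoters, was not in the Edn1 window. The TATA box TATAAA lay at 110 to 105 and was in 14.2% of promoters. The matches do not overlap each other, and none of these motifs was found in the windows of Ednra, Ednrb, Ece1 or Ece2. A match is a description of letters and not a bound site.

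The libraries were alike in breadth, with 12070 to 12286 genes at 1 TPM or more and 8.78% to 11.4% of TPM from mitochondrially encoded genes. Within groups, libraries correlated at 0.987 to 0.992 (Pearson r across genes, which are not independent replicates). TPM keeps no read depth, so the depth behind each value is unknown. In the fit of 12263 genes, the median log2 difference of all genes was -0.07 for MMA, -0.05 for FA and -0.12 for MMA+FA. The members' changes with MMA+FA are therefore also given relative to that last shift. Calls leaned to lower values on the deposited scale, with 472 higher and 2029 lower for MMA, 450 and 1067 for FA, and 818 and 4000 for MMA+FA. After median-ratio scaling of the libraries the same splits were 1001 and 847, 709 and 476, and 1898 and 1710. The further comparisons went from 514 higher and 1169 lower to 784 and 759 for MMA+FA against MMA, from 196 and 1092 to 421 and 302 for MMA+FA against FA, and from 308 and 657 to 456 and 441 for MMA against FA.

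The labels call the cells cardiomyocytes. Of the cardiomyocyte markers, 5 of 15 in the table averaged 1 TPM or more. They were Tnnc1 (359 TPM over all libraries), Tnnt2 (38.9), Nkx2-5 (11.4), Gata4 (5.95) and Ttn (1.21). Myh6 and Myh7, the cardiac myosin heavy chains, stayed at or under 0.11 TPM. Smooth muscle markers all averaged 1 TPM or more (10 of 10), as did 9 of 12 fibroblast and 6 of 12 skeletal myoblast markers. Of 12 endothelial markers only Egfl7 and Flt1 passed 1 TPM, and 2 were listed at 0 throughout. Summed endothelial markers were 44.9 to 48.9 TPM in controls, 45.1 to 49.8 under MMA, 43.9 to 50.8 under FA and 45.6 to 46.6 under MMA+FA, ranges that overlap between all groups. Most of that sum was Egfl7 (38.5, 38.3, 37.7 and 35.6 TPM in the order control, MMA, FA and MMA+FA). Flt1 rose with MMA+FA by 0.24 on the log2 scale (adjusted p = 0.00819 in limma), from 8.15 to 9.85 TPM, and its part in the Edn1 values was not tested.

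Edn1 (ENSRNOG00000014361), the ligand gene, was about doubled with MMA and raised less with FA. It stood at 12.2, 17.9 and 17.4 TPM in the control libraries and at 28.8, 32.5 and 35.4 TPM with MMA. With FA it was 24.2, 26.5 and 27.9 TPM, and with both agents 30.1, 37.6 and 34.8 TPM. All 9 treated libraries lay above all 3 controls, and control library 1 was the lowest of the 12. In a bulk library, more RNA per cell and more cells that make the RNA cannot be told apart.

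Group means of Edn1 were 15.8 ± 3.16 TPM in controls, 32.2 ± 3.29 under MMA, 26.2 ± 1.85 under FA and 34.2 ± 3.77 under MMA+FA (SD, n = 3 each). The order was control, FA, MMA and MMA+FA, and only the neighbours MMA and MMA+FA had overlapping libraries. On the scale of log2(TPM + 1), on which all differences below are given, Edn1 was 0.99 higher with MMA (SE 0.13), 0.71 higher with FA and 1.07 higher with MMA+FA, or 1.19 relative to the shift of the median gene. These 3 differences share the same control libraries. Without control library 1 they were 0.83, 0.54 and 0.91.

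The difference in Edn1 made by both agents was smaller than the sum of the single ones. MMA+FA was 0.08 above MMA and 0.37 above FA (SE 0.13), and MMA alone was 0.29 above FA. The interaction, which is the difference made by both minus the sum of the single differences, was -0.63 (SE 0.18). In TPM the single differences were 16.4 and 10.4 and the joint one 18.3. Among the tested genes, Edn1 ranked above 42.1% in controls, 58.0% with FA, 64.5% with MMA and 66.7% with MMA+FA.

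**Figure D1:**
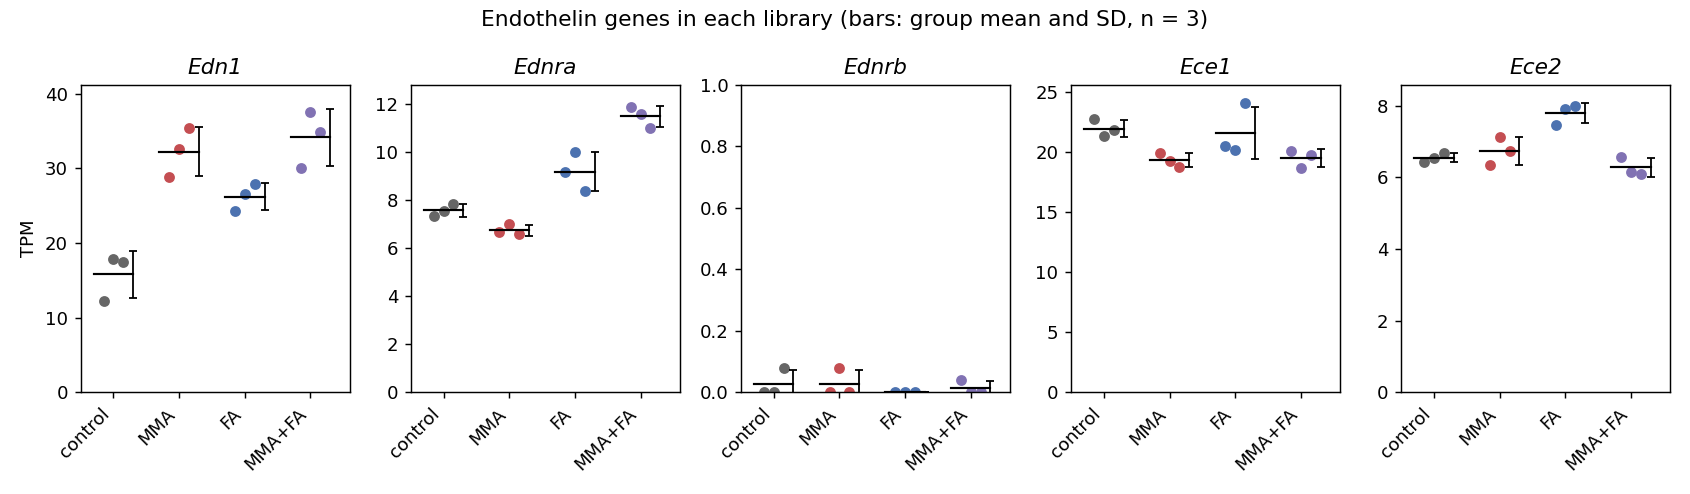
TPM of the 5 endothelin genes in each library, with the group mean and SD (n = 3) as bars; each panel has its own axis from 0. Edn1 in the 9 treated libraries lies above the 3 controls, Ednra is highest with MMA+FA, and Ednrb stays at or under 0.08 TPM.

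The other ligand genes of the family, Edn2 (ENSRNOG00000009390) and Edn3 (ENSRNOG00000007477), were listed at 0 in all 12 libraries. Endothelin-3 binds the B receptor better than the A receptor, and endothelin-2 is a close relative of endothelin-1. Edn1 was therefore the one ligand gene of this family with a value above 0.

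Ednra (ENSRNOG00000012721), the A receptor, was lowest with MMA and highest with MMA+FA. It was 7.32, 7.56 and 7.84 TPM in controls and 6.67, 7.01 and 6.57 TPM with MMA. It was 9.17, 10.0 and 8.40 TPM with FA and 11.86, 11.57 and 11.01 TPM with MMA+FA. No library of any group overlapped with another group, and the 6 libraries with FA (8.40 to 11.9 TPM) all lay above the 6 without it (6.57 to 7.84 TPM). How many of all tested genes separate in this way was not counted, so the separation is only a description. Group means were 7.57 ± 0.260, 6.75 ± 0.231, 9.19 ± 0.800 and 11.5 ± 0.432 TPM in the order control, MMA, FA and MMA+FA (SD, n = 3 each).

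In limma with Benjamini-Hochberg adjustment over all tested genes, Ednra rose with MMA+FA by 0.54 (SE 0.07, adjusted p = 0.000148). Relative to the shift of the median gene the rise was 0.66. It also rose with FA by 0.25 (SE 0.07, adjusted p = 0.0328). With MMA alone the difference was -0.15 (SE 0.07) and did not pass (adjusted p = 0.135), and it was -0.08 after median-ratio scaling. The call for MMA+FA was kept when any 1 library was left out, with adjusted p-values up to 0.00115. The call for FA was lost in 5 of 6 such fits and kept only without FA library 3, with values from 0.19 to 0.30 and adjusted p-values up to 0.0981, and without the filter on low genes (adjusted p = 0.0593).

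The response of Ednra to FA was larger in the presence of MMA. Ednra rose by 0.69 from MMA to MMA+FA (SE 0.07, adjusted p = 7.42e-05 in limma), against 0.25 from control to FA. The interaction was 0.44 (SE 0.09, 95% interval 0.24 to 0.64, adjusted p = 0.0324). That call was lost in 9 of 12 fits that left out 1 library, being each control and each MMA library, FA library 1 and MMA+FA libraries 1 and 2, with values from 0.38 to 0.50 and adjusted p-values up to 0.0896, and without the filter on low genes. MMA+FA was above FA by 0.29 (adjusted p = 0.0209), a call lost without FA library 1 or 3 or MMA+FA library 1 or 2. The difference of MMA from FA was -0.39 (adjusted p = 0.00914), and this call held in every fit without 1 library.

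Marker sums also differed between some of the groups in which Ednra differed, while the ranges of others overlapped. Smooth muscle markers summed to 7299.8 to 7378 TPM in controls, 7158 to 8302 with MMA, 8102 to 8777 with FA and 8910 to 9315 with MMA+FA. Cardiomyocyte markers summed to 340 to 354, 338 to 409, 425 to 497 and 444 to 533 TPM in the same order. Of these, Tnnt2 rose with FA by 1.42 (adjusted p = 4.81e-05 in limma) and with MMA+FA by 2.12 (adjusted p = 2.63e-07). Its means were 16.1 TPM in controls, 44.45 with FA and 73.6 with MMA+FA. Most of the cardiomyocyte sum was Tnnc1 (314, 333, 397 and 392 TPM in the order control, MMA, FA and MMA+FA). Tnnc1 rose with FA by 0.34 (adjusted p = 0.028), a call kept in 2 of 6 fits without 1 library. With MMA+FA it rose by 0.32 (adjusted p = 0.0117), kept in 5 of 6. Gata4 (-0.15 with FA and -0.15 with MMA+FA) and Nkx2-5 (0.12 and 0.03) were not called. Fibroblast markers summed to 11288 to 12053, 11708 to 12949, 13032 to 14852 and 12045 to 13566 TPM. Skeletal myoblast markers summed to 94.5 to 105 TPM in controls, 85.3 to 89.5 with MMA, 80.2 to 99.4 with FA and 58.7 to 68.0 TPM with MMA+FA. That sum followed Myod1 (72.7 TPM in controls and 31.7 with MMA+FA), while Des rose with MMA+FA by 0.38 (adjusted p = 0.0322), a call lost in 5 of 6 fits without 1 library. Myog differed from Myod1 in direction, with means of 15.8 TPM in controls, 21.4 with FA and 18.4 with MMA+FA. Its difference was 0.42 with FA (adjusted p = 0.012 in limma), and 5 of 6 fits without 1 library kept it. With MMA+FA the difference of 0.22 was not called (adjusted p = 0.0519). After median-ratio scaling it was 0.34 and passed (adjusted p = 0.00986). The part of all these markers in the Ednra result was not tested.

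Ednrb (ENSRNOG00000010997), the B receptor, was listed at 0 in 9 of 12 libraries. The values above 0 were 0.08 TPM in control library 3, 0.08 TPM in MMA library 2 and 0.04 TPM in MMA+FA library 1. It was below the filter and was not tested, and no fold is given. Ednra thus made up almost all of the receptor RNA of this family in every group.

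Ece1 (ENSRNOG00000014241), the first converting enzyme described and the main one in vessels, was the more abundant of the enzyme genes. It was 22.8, 21.3 and 21.8 TPM in controls, 19.96, 19.3 and 18.8 with MMA, 20.5, 20.2 and 24.1 with FA, and 20.1, 18.7 and 19.7 with MMA+FA. The 6 libraries with MMA (18.7 to 20.1 TPM) lay below the 6 without it (20.2 to 24.1 TPM), by a narrow margin. Such splits were not counted over all tested genes. Group means were 22.0 ± 0.722, 19.3 ± 0.591, 21.6 ± 2.18 and 19.5 ± 0.740 TPM (SD, n = 3 each, in the order control, MMA, FA and MMA+FA).

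No difference of Ece1 passed the threshold in limma. With MMA it was -0.17 (95% interval -0.32 to -0.03, adjusted p = 0.0743), and after median-ratio scaling -0.10. With MMA+FA it was -0.16 (95% interval -0.30 to -0.02, adjusted p = 0.062), and -0.05 against the median gene. With FA it was -0.03 (95% interval -0.17 to 0.11, adjusted p = 0.813), and 0.02 after median-ratio scaling. The differences of Ece1 with MMA and with MMA+FA did pass, at adjusted p-values of 0.034 and 0.0341, when only the groups compared entered the fit.

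Ece2 (ENSRNOG00000001715), a relative of Ece1 that works at a more acid pH and is best known from nervous tissue, was highest with FA alone. It was 6.44, 6.55 and 6.68 TPM in controls, 6.34, 7.13 and 6.73 with MMA, 7.47, 7.9 and 8.0 with FA, and 6.58, 6.16 and 6.10 with MMA+FA. The 3 FA libraries lay above the other 9, and the other groups overlapped in part. The share of all tested genes with such a split was not counted. Group means were 6.56 ± 0.120, 6.73 ± 0.395, 7.79 ± 0.282 and 6.28 ± 0.262 TPM (SD, n = 3 each, in the same order).

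Ece2 rose with FA by 0.22 (SE 0.06, adjusted p = 0.0408 in limma). This call was lost in 6 of 6 fits without 1 library, with values from 0.20 to 0.24 and adjusted p-values from 0.0567 to 0.11. It differed by 0.03 with MMA (95% interval -0.10 to 0.17) and by -0.05 with MMA+FA (95% interval -0.19 to 0.08), which is 0.06 against the median gene, so its sign depends on the scale. Ece2 fell by 0.27 from FA to MMA+FA (adjusted p = 0.0219), a call lost after median-ratio scaling (-0.21, adjusted p = 0.0636) and on leaving out FA library 3 or MMA+FA library 2 or 3. The interaction was -0.30 (SE 0.09, adjusted p = 0.0958) and did not pass. Eef1akmt4, the neighbouring gene of Ece2 on the same strand, was at 13.8 TPM in controls and 12.9 TPM with FA (log2 -0.09, adjusted p = 0.422). With MMA+FA Eef1akmt4 fell by 0.22 (adjusted p = 0.0293), a call lost after median-ratio scaling (adjusted p = 0.268).

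**Figure D2:**
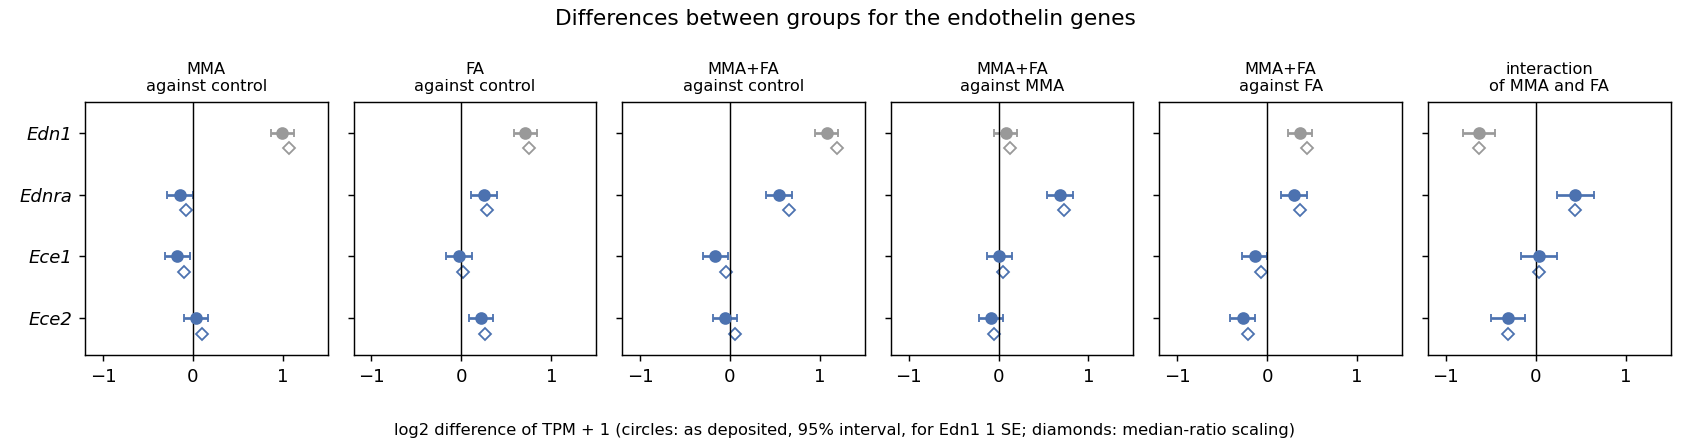
Log2 differences of TPM + 1 for the 4 endothelin genes above 1 TPM in 6 comparisons: circles are the deposited scale, with 95% intervals (1 SE for Edn1, which was not tested), and diamonds are median-ratio scaling. Ednra lies at 0.54 with MMA+FA and 0.44 in the interaction, while Edn1 lies at -0.63 in the interaction.

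Counts of called members are set against the share of all genes called. Beside Edn1, 3 members could be tested. With MMA against control, 0 of the 3 passed in limma, where 20.4% of all genes did, and 2 of them (Ednra and Ece1) had an unadjusted p under 0.05. At that unadjusted threshold 4415 of the 12263 genes passed in this comparison. With FA against control, 2 of 3 were higher (Ednra and Ece2), against 12.4% of genes called in either direction. With MMA+FA against control, 1 of 3 was higher (Ednra), against 39.3% called, a share near this background. With MMA+FA against MMA, 1 of 3 was higher (Ednra), against 13.7% called. With MMA+FA against FA, Ednra was higher and Ece2 lower, against 10.5% called. With MMA against FA, 1 of 3 was lower (Ednra), against 7.87% called. In the interaction, 1 of 3 passed (Ednra), against 2.41% called. A set of 3 genes is too small to read a share from.

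**Figure D3:**
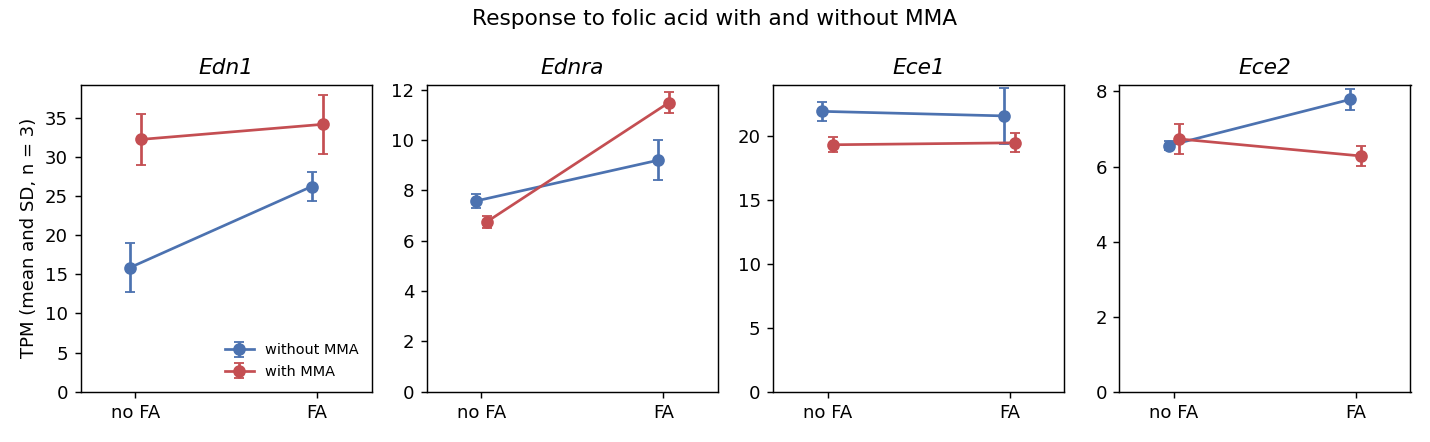
Mean TPM and SD (n = 3) without and with FA, in cells without MMA (blue) and with MMA (red); axes start at 0. The Ednra line is steeper with MMA (6.75 to 11.5 TPM) than without (7.57 to 9.19 TPM), the Edn1 line is flatter with MMA, and Ece2 goes from 6.56 to 7.79 TPM without MMA and from 6.73 to 6.28 TPM with it.

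The ratio of ligand to receptor RNA was highest with MMA. The ratio of Edn1 to Ednra, both per length, was 2.09 ± 0.370 in controls, 4.78 ± 0.545 under MMA, 2.87 ± 0.389 under FA and 2.98 ± 0.387 under MMA+FA (SD, n = 3 each). The MMA libraries, at 4.32 to 5.38, lay above all others, while FA (2.64 to 3.32) and MMA+FA (2.54 to 3.25) overlapped. As Edn1 enters this ratio, it is a description. The ratio of Ece1 to Ece2 was 3.35 ± 0.157, 2.88 ± 0.234, 2.77 ± 0.231 and 3.11 ± 0.113 in the order control, MMA, FA and MMA+FA. Ece1 exceeded Ece2 in all 12 libraries.

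**Figure D4:**
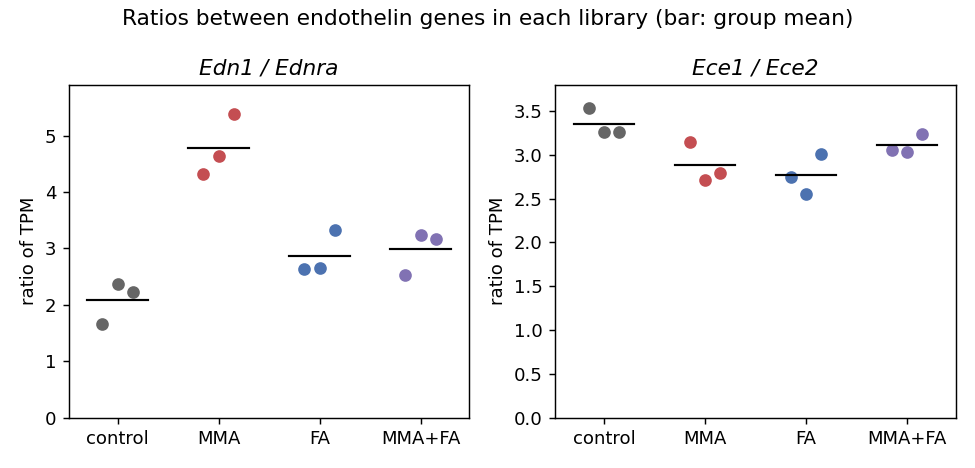
Ratio of TPM in each library for Edn1 over Ednra and for Ece1 over Ece2, with bars at the group means; axes start at 0. Edn1 over Ednra is highest with MMA, with a mean of 4.78 against 2.09 in controls.

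The members did not vary together as a set. Over the 12 libraries, Edn1 and Ece1 had a Pearson r of -0.688 (Spearman rho -0.881), Edn1 and Ednra 0.348, and Ednra and Ece2 -0.0745. These are descriptions, since libraries of a group share their treatment. The genes most like Edn1, by Pearson r of log2(TPM + 1) over the 12 libraries among 9544 genes with a symbol and a mean of at least 5 TPM, were Tnfaip6 (0.956), Cited2 (0.951), Rpl18 (0.938), Frat2 (0.937) and Atf3 (0.930). Cited2, a transcriptional co-regulator, averaged 259.6 TPM in controls, 359 under MMA, 331 under FA and 375 under MMA+FA. Ednra was most like Acta1 (0.972), Itga6 (0.962) and Vcl (0.953), which encode skeletal alpha-actin, an integrin chain and vinculin. Among the genes most like Ece1 was Pi4k2a (0.966), and among those most like Ece2 were Stimate (0.867) and Gpt2 (0.864).

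Genes around the endothelin system were taken from lists by role, and each list is given by its counts. They are to be read against all tested genes, of which 3.85% were called higher and 16.5% lower with MMA, 3.67% and 8.70% with FA, and 6.67% and 32.6% with MMA+FA, and against the medians stated above. At an unadjusted p under 0.05 in limma, 4415 of the 12263 genes passed with MMA and 3809 with FA. The unadjusted counts below are to be read against those. Among 15 enzymes that cut or degrade endothelin peptides, 6 were tested. Furin, a protease of the first cut, was present at 50.5 to 60.2 TPM over the group means and was not called against control. Neprilysin (Mme), which degrades the peptide, was at 154 to 163 TPM and was not called either. Pcsk7 fell with MMA by 0.19 (adjusted p = 0.0131 in limma), and Pcsk6 fell with MMA+FA by 0.17 (adjusted p = 0.0446). The Pcsk7 call was lost without control library 1 or MMA library 3, the Pcsk6 call in 5 of 6 fits without 1 library, and both under median-ratio scaling. Under that scaling Ctsa was higher with MMA+FA (0.15, adjusted p = 0.0184), against 0.03 on the deposited scale (adjusted p = 0.641). No other gene of the list was then called against control. No enzyme of this list was called with FA (1 had an unadjusted p under 0.05), and the list's medians were -0.10 for MMA, 0.04 for FA and -0.07 for MMA+FA.

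Of the G proteins and effectors that carry the receptor's signal, 22 of 29 were tested. None was higher against control, 4 were lower with MMA, none was called with FA (2 higher and 4 lower before adjustment, at p under 0.05), and 9 were lower with MMA+FA (5 without control library 3). Median-ratio scaling changed these to 0 calls with MMA, 2 higher with FA, and 3 higher and 4 lower with MMA+FA, so the direction of the list depends on the scale. The list's medians were -0.15, -0.04 and -0.10 for MMA, FA and MMA+FA, in that order. The Gq family genes Gnaq and Gna11 were present at 32.7 to 38.0 and 90.7 to 99.4 TPM over the group means, Plcb3 and Plcb4 were present, and Plcb1 and Plcb2 did not exceed 0.05 TPM. Gnaq was called lower with MMA+FA in limma (-0.21, adjusted p = 0.0106). That call was lost without control library 3 and after median-ratio scaling (-0.09, adjusted p = 0.209). With MMA+FA, Gna13 fell by 0.47 (adjusted p = 0.00213), Gnao1 by 0.37 and the protein kinase C gene Prkca by 0.35 (adjusted p = 0.00136), each also under median-ratio scaling. With MMA, Rock1 (-0.35), Prkca (-0.24) and Prkcd (-0.18) were called at adjusted p-values of 0.0211 to 0.0313. Without control library 1, control library 3 or MMA library 3, each of these 3 calls was lost, and the count of lower genes with MMA ranged from 0 to 4 over the fits without 1 library.

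Among the RGS proteins, receptor kinases and arrestins that end receptor signals, 10 of 15 were tested. With MMA 1 was higher and 1 lower, with FA 1 higher, and with MMA+FA 1 higher and 4 lower, or 3 and 1, 1 and 0, and 1 and 1 after median-ratio scaling. Without control library 1 the lower count with MMA+FA was 2. Rgs2, which turns off Gq, rose with MMA by 0.42 (adjusted p = 0.0089) and with MMA+FA by 0.60 (adjusted p = 0.000472). Rgs3 fell with MMA by 0.33 (adjusted p = 0.0052). With MMA+FA, Arrb2 fell by 0.39 (adjusted p = 0.00158), and Grk2 by 0.27 on the deposited scale (adjusted p = 0.00315) but not after median-ratio scaling (-0.15, adjusted p = 0.0554). Rgs12 rose with FA by 0.30 (adjusted p = 0.028), a call lost in 5 of 6 fits without 1 library. The list's medians were -0.01, -0.04 and -0.05 in the same order.

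Of 38 genes known to act on Edn1 transcription, 35 were tested. The list does not separate genes that raise Edn1 from genes that lower it, so its counts give no direction for Edn1. With MMA 0 were higher and 13 lower (3 and 7 after median-ratio scaling), with FA 3 higher and 4 lower (4 and 2), and with MMA+FA 5 higher and 14 lower (8 and 7). At an unadjusted p under 0.05, 3 were higher and 20 lower with MMA. Without control library 1 the lower count with MMA was 7. The list's medians were -0.16, -0.04 and -0.15. With MMA, Junb fell by 0.62 (adjusted p = 0.00164), Tead1 by 0.25 (adjusted p = 0.00397) and Srf by 0.28 (adjusted p = 0.00651). With FA, Tgfbr1 fell by 0.27 (adjusted p = 0.0154), Smad7 fell by 0.34 and Tgfb3 rose by 0.27. Those 3 calls were lost without control library 3 or FA library 1, and without control library 3 none of the list was called with FA. With MMA+FA, Tead1 fell by 0.31, Smad7 by 0.54 (adjusted p = 0.00038) and the ligand gene Tgfb3 rose by 0.40 (adjusted p = 0.00051).

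The AP-1, GATA and hypoxia factors of that list were looked at on their own after their values were seen, because the printed Edn1 stretch holds such letters. Of 7 AP-1 genes, 4 were lower with MMA (Junb, Fos, Fosb and Fosl1), 0 were called with FA (2 higher and 1 lower before adjustment, at p under 0.05) and 2 were lower with MMA+FA (Junb and Fosl1), while none was higher in limma. This split depends on the scale: after median-ratio scaling 1 was higher and 4 lower with MMA (Fosl2 higher), 1 higher and 0 lower with FA (Jun), and 3 higher and 1 lower with MMA+FA (Jun, Jund and Fosl2 higher, Junb lower). Fosb had a log2 difference of -1.63 with MMA (adjusted p = 0.00773), from 117 ± 14.2 to 42.6 ± 25.5 TPM, and Fos one of -0.60 (adjusted p = 0.0191), lost without control library 1 or MMA library 3. Jun stood at 71.8 TPM in controls and 78.3, 88.4 and 79.4 TPM with MMA, FA and MMA+FA. Gata6 rose with FA by 0.25 (adjusted p = 0.0374, lost in 4 of 6 fits without 1 library) and with MMA+FA by 0.32 (adjusted p = 0.00409), and Gata4 was not called. Hif1a fell with MMA by 0.22 (adjusted p = 0.0496), with FA by 0.24 (adjusted p = 0.0468) and with MMA+FA by 0.33 (adjusted p = 0.0039). The Hif1a calls with MMA and with FA were lost in 6 and 5 of 6 fits without 1 library, and both after median-ratio scaling. Arnt fell with MMA+FA by 0.21 (adjusted p = 0.0149). That call was lost without MMA+FA library 2 and after median-ratio scaling (-0.10, adjusted p = 0.209). Gata2 was not called against control, and Epas1 did not exceed 0.07 TPM. What these levels have to do with Edn1 was not tested.

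Of 22 genes that respond in heart cells given endothelin-1 or other growth stimuli, 17 were tested. With MMA 4 were higher and 1 lower, with FA 7 higher and 0 lower, and with MMA+FA 7 higher and 2 lower (5 and 1, 8 and 0, and 9 and 0 after median-ratio scaling). The medians were 0.10, 0.18 and 0.09. Without control library 1 the higher count with MMA was 2, and without control library 3 the lower count with MMA+FA was 1. Acta1 rose with MMA+FA by 1.10 (adjusted p = 4.1e-05), from 3.77 to 9.25 TPM, and its interaction was 0.82 (adjusted p = 0.0205), lost without control library 1 or 3. Ccn1, a matricellular protein gene, rose with MMA by 0.27, with FA by 0.32 and with MMA+FA by 0.22 (adjusted p = 0.00436, 0.00423 and 0.00344). Atf3 rose with MMA by 0.37 (adjusted p = 0.00324) and with MMA+FA by 0.33 (adjusted p = 0.00146). Egr1 fell with MMA by 0.60 (adjusted p = 0.00553). The natriuretic peptide genes Nppa and Nppb did not exceed 0.32 and 0.20 TPM. With FA the count of higher genes ranged from 1 to 8 over the fits without 1 library and was lowest without control library 3. Apart from Pcsk6, Gnaq, Grk2, Fosl1 and Arnt, each MMA+FA call named in these lists was also made after median-ratio scaling.

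**Figure D5:**
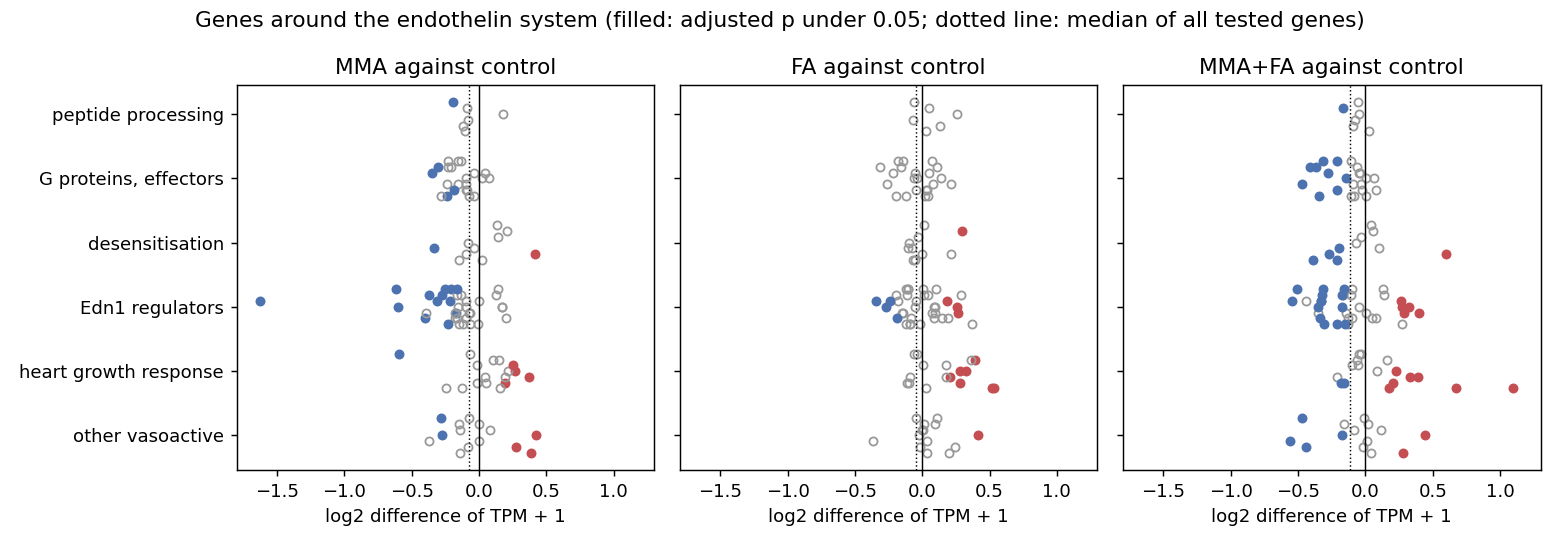
Log2 differences of TPM + 1 against control for the tested genes of 6 lists, 1 point per gene: filled red and blue points are higher and lower at an adjusted p under 0.05, open points were not called, and the dotted line is the median of all tested genes. In the list of heart growth genes 7 points are red with FA and 7 with MMA+FA, and in the list of Edn1 regulators 13 are blue with MMA and 14 with MMA+FA.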

How the data were processed

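RNA-seq of 12 H9c2 libraries was used. The deposited unit is TPM, as the authors computed it for every gene. Per the submitters' processing notes, fastp, HISAT2 and the build mRatBN7.2 were used, and only the file's own name mentions RSEM. Per the labels' protocols, a stranded mRNA kit was used. Not given in the sources used here: versions, annotation, strand setting. No sample column was left unused (0).

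The 12263 genes averaging 1 TPM or more were fitted as log2(TPM + 1) in limma 3.58.1 (R 4.3.3, with version 1.17.8 of its data.table package), with 1 mean per group, a mean-variance trend, 8 residual degrees of freedom and 4.317 prior ones. All 7 comparisons were each adjusted by Benjamini-Hochberg and called under 0.05. Fold differences on this scale understate the change of low genes. A permutation of 3 against 3 libraries cannot go below p = 0.1, so limma alone was used. The script was tested on simulated data. Median-ratio scaling and the other settings tried are reported in the closing section.

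Members and lists were chosen with earlier results of these data known. Named genes were the members, up to 3 called genes of smallest p per list and comparison against control, and the genes most like each member; some of these are not reported here. Other genes, such as the AP-1 genes not among these, Furin, Mme, Gnaq, Gna11, Gata6 and Hif1a, were named after their values were seen. A symbol with several loci was taken at its highest mean TPM. Figures were drawn with matplotlib 3.10.9 (Python 3.11.15).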

Additional observations from a re-analysis of the deposited data

Results flagged for a closer look

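The effect of FA on Ednra differed between cells without and with MMA by 0.44 on the log2 scale, by the interaction term in limma (SE 0.09, adjusted p = 0.0324). Ednra went from 7.57 to 9.19 TPM with FA alone and from 6.75 to 11.5 TPM with FA added to MMA. The call was lost in 9 of 12 fits that left out 1 library, and the size stayed between 0.38 and 0.50.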

How the results depend on the processing

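Among the members, no called difference changed sign. Uncalled ones near 0 did: under median-ratio and quantile scaling, Ece1 with FA became 0.020 and 0.017, and Ece2 with MMA+FA became 0.053 and 0.11. On leaving out 1 library, the values of Ece2 with MMA ranged from -0.0045 to 0.069, of Ece1 with FA from -0.10 to 0.019, of Ece1 for MMA+FA against MMA from -0.010 to 0.040 and of Ece1 in the interaction from -0.0082 to 0.11. The replicate block left the count of calls at 2198 for MMA, 1300 for FA and 4591 for MMA+FA against control, and moved Ece2 with FA to an adjusted p of 0.0626 (log2 0.22); it changed no other call of a member. Whether the numbers pair libraries of different groups is not known. Deviations of same-numbered libraries correlated at -0.124 to 0.107 over 18 pairs, and of others at -0.203 to 0.141 over 36. Those ranges overlap, which cannot decide whether a pairing was part of the design. With only the groups compared in the fit, Ece1 passed with MMA (-0.17, adjusted p = 0.034) and with MMA+FA (-0.16, adjusted p = 0.0341). The calls of Ednra (0.25) and Ece2 (0.22) with FA, of Ednra (0.29) and Ece2 (-0.27) in MMA+FA against FA, and of Ednra in MMA against FA (-0.39) were then lost. Genes called were then 604 with FA, 23 for MMA+FA against FA and 84 for MMA against FA; the interaction has no such separate fit. With no filter, genes called were 928 with FA, 699 for MMA+FA against FA, 410 for MMA against FA and 181 in the interaction, and the calls of Ednra (0.25) and Ece2 (0.22) with FA and of Ednra in the interaction (0.44, adjusted p = 0.0661) were lost. Median-ratio and quantile scaling gave 723 and 507 genes for MMA+FA against FA and lost Ece2 there (-0.21 and -0.17). Without 1 library at a time, genes called ranged from 1173 to 1898 with MMA, 214 to 2571 with FA, 868 to 1696 for MMA+FA against MMA, 357 to 2010 for MMA+FA against FA, 114 to 2086 for MMA against FA and 85 to 496 in the interaction. In those fits Ednra ranged from 0.19 to 0.30 with FA, 0.24 to 0.35 for MMA+FA against FA and 0.38 to 0.50 in the interaction, and Ece2 from 0.20 to 0.24 with FA and from -0.30 to -0.25 for MMA+FA against FA. The calls of Ednra with MMA+FA against control and against MMA held in every setting tried. The causes were not tested, and unknown depth leaves low genes such as Ednrb without a limit of detection.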

Other observations

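Of genes of other vasoactive systems, 14 of the 39 in the table passed the filter and were tested. With MMA 3 were higher and 2 lower, with FA 1 and 0, and with MMA+FA 2 and 4. After median-ratio scaling these were 4 and 1, 2 and 0, and 3 and 3. Of all tested genes, 3.85% were higher and 16.5% lower with MMA, 3.67% and 8.70% with FA, and 6.67% and 32.6% with MMA+FA. The list is small, and its lower counts with MMA and with MMA+FA were near those shares. The list's medians were -0.08, 0.02 and -0.01 for MMA, FA and MMA+FA. Ptgs2, the inducible cyclooxygenase, rose with MMA by 0.42 (adjusted p = 0.0041 in limma), with FA by 0.41 (adjusted p = 0.00954) and with MMA+FA by 0.44 (adjusted p = 0.000818), from 53.6 TPM in controls to 71.9, 71.5 and 73.0 TPM. Adm, the vasodilator adrenomedullin, rose with MMA by 0.39 (adjusted p = 0.00832), from 14.7 to 19.5 TPM. With MMA+FA, Vegfa fell by 0.47 (adjusted p = 0.000355) and Ptgs1 by 0.56 (adjusted p = 0.00683). Avpr1a, a vasopressin receptor, fell with MMA by 0.28 (adjusted p = 0.00975), from 191 to 158 TPM. Each of these calls was kept in all 6 fits without 1 library and after median-ratio scaling. The angiotensin genes Agt, Ace and Agtr1a did not exceed 0.32, 0.11 and 0.04 TPM. The angiotensin receptor gene Agtr1b was present at 2.96 to 3.64 TPM and was not called against control.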
